A study of Sus scrofa with 20 samples.

Results

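The microRNA miR-132 was counted in PBMCs (mononuclear cells of peripheral blood, mainly lymphocytes with some monocytes, isolated on a density gradient) of female American Yorkshire pigs before and after intracerebral hemorrhage (ICH), a bleed into the brain. Its hairpin gives a mature strand from each side, the 3p and the 5p arm. The members were 3 rows out of 892 in 2 count tables of the same libraries: hsa-miR-132-3p and hsa-miR-132-5p among 608 human miRNAs, and ssc-miR-132 among 284 pig miRNAs. They were chosen because all 3 were lower after ICH, so their change is given as a description with no test. The neighbouring miR-212 was not chosen for its values, and its 3 rows are given beside them.

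The pigs were 80 to 90 days old and weighed 36 to 41 kg. The 10 Control libraries came from untreated blood taken before ICH induction. The 10 ICH libraries came from blood taken 6 h after 2 to 4 mL of the animal's own blood had been injected through a burr hole into the frontal white matter. Replicate numbers 1 to 10 occur in both groups and were used to pair the libraries. No animals with a burr hole alone were analysed here, so the time point, the surgery and the bleed cannot be told apart. The libraries held 919313 to 2177834 human-reference and 896960 to 2103685 pig-reference reads. The leukocyte miRNAs miR-142-5p and miR-150-5p were among the 20 most abundant human-reference rows, at ranks 13 and 17.

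miR-132 and miR-212 are made from a shared primary transcript, and their 3p arms share a seed, the bases that pair with target mRNAs. Transcription of the pair is driven by CREB, a factor activated by cyclic AMP and calcium signalling, and in neurons it follows electrical activity. In leukocytes miR-132 is known as an early product of Toll-like receptor signalling that limits inflammation, and its targets include the mRNAs of the coactivator p300, the kinase IRAK4 and acetylcholinesterase. No mRNA was measured in these libraries. No mature miRNA sequences were used here, so seeds were not compared.

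In the NCBI RefSeq gene table of the pig build Sscrofa11.1, MIR132 lies on chromosome 12 from 48162625 to 48162702. MIR212 lies on the same chromosome from 48163054 to 48163135, with 351 bases between the hairpin genes. No other annotated gene overlaps MIR132. The nearest protein-coding genes are OVCA2, which ends 851 bases before it, and HIC1, which starts 5159 bases after it. MIR212 was the only other miRNA gene annotated within 1000000 bases of it.

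miR-132 was scarce in these cells. Over the 20 libraries hsa-miR-132-3p collected 625 reads and hsa-miR-132-5p 303 reads. By mean CPM (reads scaled to a library total of 1000000), the 3p arm ranked 197 of 608 human-reference rows and the 5p arm 228. The row ssc-miR-132 held the same count as hsa-miR-132-3p in 20 of 20 libraries, with no difference allowed. The pig and the human row are therefore the same 3p reads counted against different references, and they are not separate evidence. The same held for ssc-miR-212 and hsa-miR-212-5p, also in 20 of 20 libraries.

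The 3p arm was lower after ICH. In the Control libraries hsa-miR-132-3p was counted 17 to 63 times with a median of 37.5, and in the ICH libraries 7 to 42 times with a median of 22.5. The lowest, median and highest Control libraries were at 16.7, 26.2 and 43.4 CPM. The ICH libraries were at 6.32, 16.9 and 27.5 CPM. The groups overlapped: 5 of 10 ICH libraries lay below the lowest Control library, and 4 of 10 Control libraries lay above the highest ICH library. The mean went from 27.3 ± 8.52 to 17.0 ± 6.33 CPM (SD, n = 10 each).

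The 5p arm was at about the same relative distance. Its reads numbered 11 to 35 in Control (median 14.5) and 3 to 25 in ICH (median 9.5). The lowest, median and highest levels were 10.02, 12.5 and 16.1 CPM in Control and 3.06, 8.25 and 13.8 CPM in ICH. Here 8 of 10 ICH libraries lay below the lowest Control library and 3 of 10 Control libraries above the highest ICH library, and the mean went from 12.8 ± 2.02 to 7.96 ± 3.16 CPM (SD, n = 10 each). The pooled reads, 185 of 13937742 in Control and 118 of 14064000 in ICH, gave 13.3 and 8.39 CPM. In bulk RNA, fewer cells of a type and less of the miRNA per cell cannot be told apart.

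**Figure D1:**
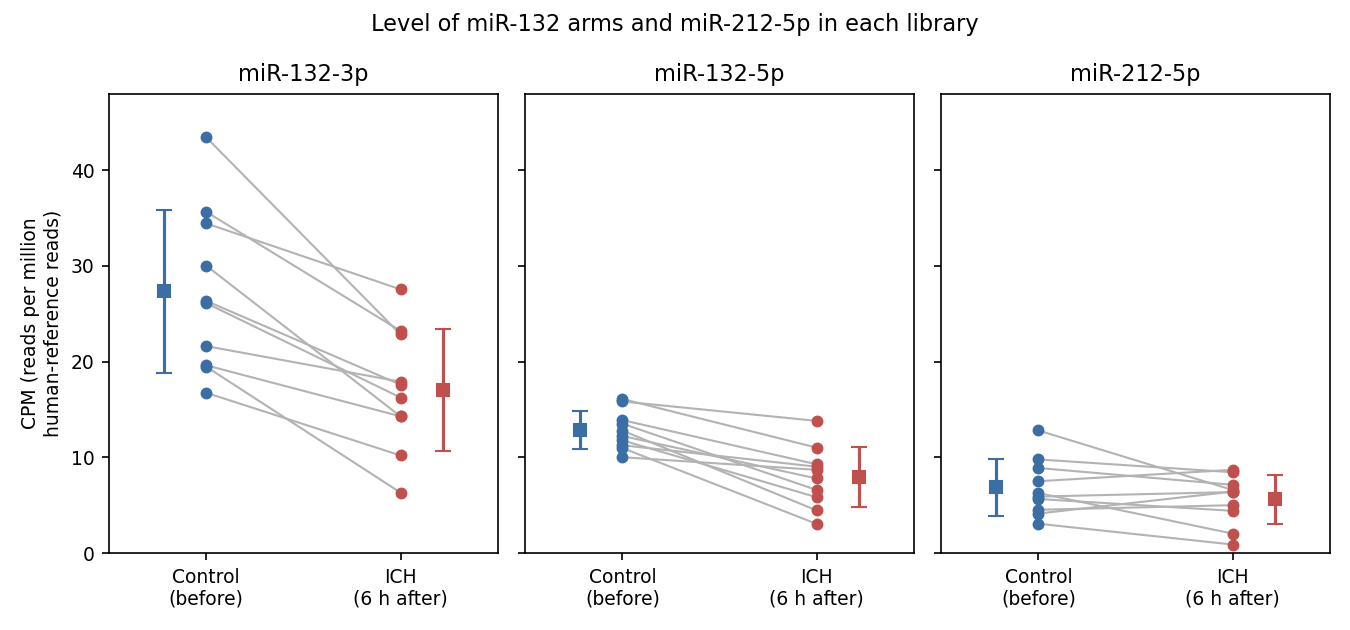
Level of hsa-miR-132-3p, hsa-miR-132-5p and hsa-miR-212-5p in each library, in CPM of human-reference reads. Circles are libraries, grey lines join the Control and ICH library of a replicate number, and squares with bars are the mean ± SD of 10 libraries. The lines of both miR-132 arms slope down in 10 of 10 pairs, while those of miR-212-5p go down in 6 and up in 4.

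Compared within replicate numbers, the 3p arm was lower after ICH in 10 of 10 pairs, under plain library totals and under TMM scaling (edgeR's correction for libraries of different composition). The ratio of the ICH to the Control library ran from 0.325 in number 8 to 0.828 in number 6, with a median of 0.637. In number 8 the reads went from 19 to 7, in number 1 from 52 to 21 and in number 7 from 54 to 20. At these depths a single pair shows little: the 95% counting interval of the ratio (exact binomial, counting error only) lay below 1 in 4 of 10 pairs. Of the 245 human-reference miRNAs tested, 2.45% were lower in 10 of 10 pairs under TMM scaling, and of the 179 pig-reference miRNAs 3.91%. The members were chosen on this contrast, so nothing is read from these shares.

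For the 5p arm the ratio ran from 0.279 in number 2 to 0.872 in number 5, with a median of 0.653. All 10 pairs were lower with library totals and 9 of 10 with TMM scaling, where number 8 was 1.09 times its Control. The counting interval lay below 1 in 2 pairs, numbers 2 and 9. The pairs with the lowest ratios were not the same for the arms: number 8 was lowest for 3p, at 7 reads against 19, but had 10 reads against 11 for 5p.

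**Figure D2:**
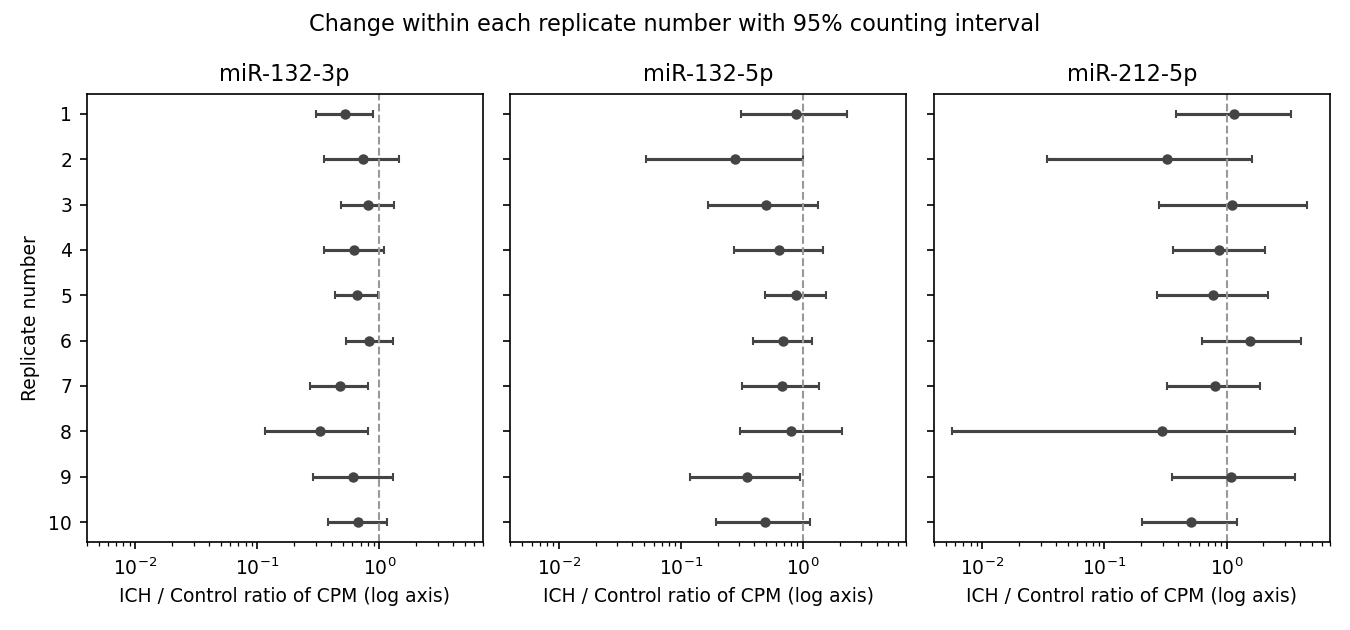
Ratio of CPM in the ICH library to CPM in the Control library of each replicate number, on a log axis, for both arms of miR-132 and for miR-212-5p. Points are ratios, bars are 95% counting intervals and the dashed line marks a ratio of 1. All 10 points of each miR-132 arm lie below 1, and the bars of 4 pairs for 3p and 2 pairs for 5p lie wholly below it.

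Across all libraries, with the replicate number as a block, the fitted log2 fold change was -0.58 ± 0.15 for hsa-miR-132-3p and -0.59 ± 0.21 for hsa-miR-132-5p (SE; edgeR quasi-likelihood fit). These are folds of 0.668 and 0.663. Among 245 tested miRNAs they were the fourth and the third lowest log2 fold changes, and the median of all was 0.03. In this comparison 6.12% of the tested human-reference miRNAs were called lower and 13.1% higher at an adjusted p under 0.05. The split moved with the scaling between libraries, from 32 higher and 15 lower under TMM to 15 higher and 24 lower under library totals and 18 higher and 29 lower under upper-quartile scaling. The 3p arm reached the filter's level of 7.58 CPM in 10 Control and 9 ICH libraries, and the 5p arm in 10 Control and 6 ICH libraries, so the 5p arm entered the fit more through the group in which it was higher.

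In the pig-reference fit ssc-miR-132 had a log2 fold change of -0.65 ± 0.14 (SE), the third lowest of 179, where 10.1% were called lower and 11.7% higher. The reads were those of hsa-miR-132-3p, so the step from -0.58 to -0.65 came from the other miRNAs of each table through the scaling. Upper-quartile scaling turned the order around, to -0.71 in the human and -0.54 in the pig table, and moved the median of all tested miRNAs by -0.12 and 0.12. It also moved the pig-reference split from 21 higher and 18 lower to 35 and 9. Measured against the median of all tested miRNAs in the same fit, the 3p reads were lower by similar amounts everywhere. The difference from that median was -0.61 in both tables under TMM, and -0.62 in both under upper-quartile scaling. Under library totals it was -0.60 in the human and -0.59 in the pig table.

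**Figure D3:**
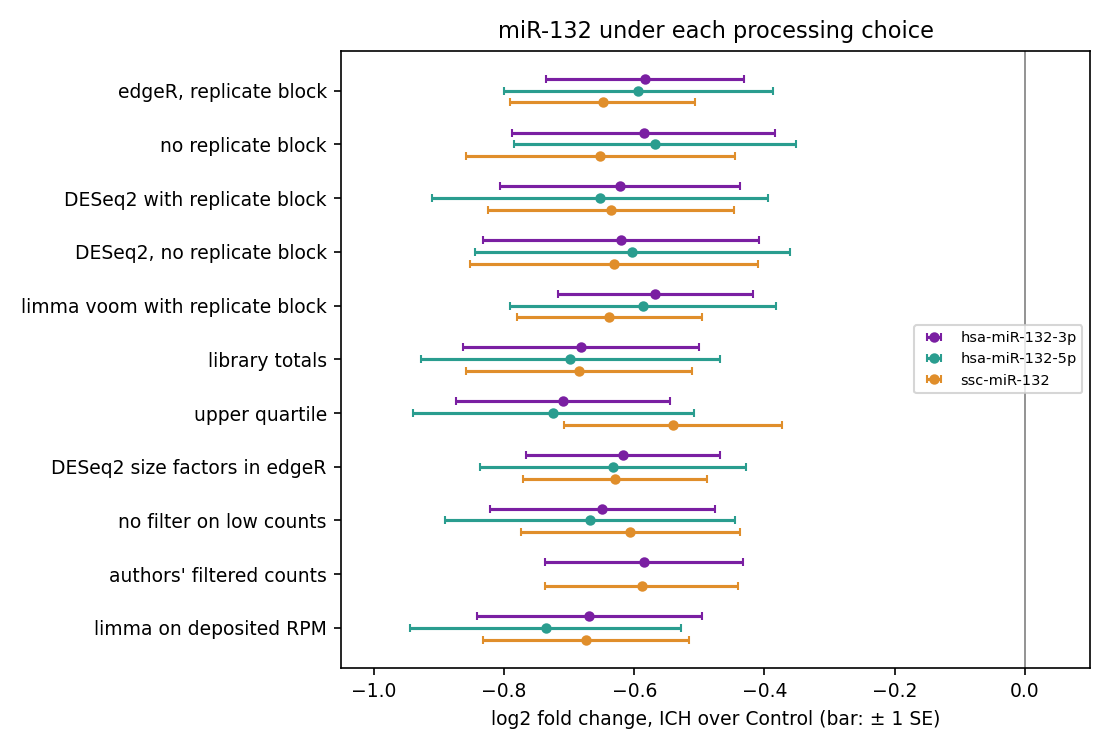
Fitted log2 fold change (ICH over Control) of the miR-132 rows under each processing choice, with bars of ± 1 SE. The points lie between -0.74 and -0.54, and the 5p arm has no point for the authors' filtered counts, where it was too low to be tested.

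miR-212, the neighbour on the same transcript, was scarcer. Its 5p arm collected 177 reads over 20 libraries and its 3p arm 10. The lowest, median and highest levels of hsa-miR-212-5p were 3.07, 6.09 and 12.8 CPM in Control and 0.903, 6.40 and 8.70 CPM in ICH. The ranges overlapped, and the ICH median was above the Control median, though below it with TMM scaling (6.42 against 6.69 CPM). The means without that scaling were 6.86 ± 2.95 and 5.61 ± 2.56 CPM (SD, n = 10 each). It was lower in 6 of 10 pairs. Its counts were below the filter of the fit in both tables. Tested without that filter, hsa-miR-212-5p had a log2 fold change of -0.25 ± 0.28 (SE; adjusted p = 0.80 with the block and 0.695 without it, edgeR quasi-likelihood test). The interval of that fold, 0.574 to 1.24, holds both no change and the 0.668 of hsa-miR-132-3p, so neither was excluded at this depth.

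The log2 ratio of hsa-miR-132-3p to hsa-miR-212-5p was taken within each library, from CPM + 1. The mean over the 10 Control libraries was 1.88 ± 0.58 (SD), that over the 10 ICH libraries was 1.4996 ± 0.63 (SD), and the ratio was lower after ICH in 8 of 10 pairs, by 0.38 ± 0.18 on average (SE). The log2 ratio of the 5p arm to hsa-miR-212-5p was also lower in 8 of 10 pairs, from 0.89 ± 0.57 to 0.49 ± 0.84 (SD, n = 10 each). These differences use the reads that chose the members and were not tested. hsa-miR-212-3p had 0 reads in 5 Control and 7 ICH libraries and at most 2 in any library, so no change is given for it.

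The arms of miR-132 were more even than those of most hairpins. The 3p arm took 67.3% of the hairpin's reads (95% exact binomial interval 64.2% to 70.4%), and the 5p arm the other 32.7%. Of 130 hairpins with both arms in the human-reference table and at least 100 reads, the minor arm took a median of 1.76%, and miR-132 ranked 10 from the most even. For miR-212 the balance was the other way, with 94.7% of its reads from the 5p arm (90.4% to 97.4%). The 3p arm of miR-132 outnumbered 5p in 19 of 20 libraries, the exception being ICH 8, with 7 against 10 reads. The 5p arm of miR-212 outnumbered 3p in 19 of 20, and in ICH 8 each had 1 read.

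Averaged over the Control and ICH library of each replicate number, the log2 ratio of 3p to 5p of miR-132 was 0.997 ± 0.498, and that of 5p to 3p of miR-212 was 2.36 ± 0.85 (SD over 10 numbers, log2 of CPM + 1). Both differed from 0 in the exact two-sided sign-flip test (p = 0.00195 each, the smallest that 10 numbers can give, and adjusted p = 0.00195 over 2 ratios). This level of the arms was not used to choose the members. The counts were made against human miRNAs, and the part that base differences between pig and human play in the arm counts was not tested, beyond the equal counts of the 3p rows above.

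The balance of the miR-132 arms showed no shift after ICH larger than its spread. Both arms were chosen because they were lower after ICH, so a steady ratio is partly built into that choice. Its change is a description and was not tested. The mean log2 ratio of the Control libraries was 0.99 ± 0.49 and that of the ICH libraries 1.005 ± 0.72 (SD, n = 10 each). It was higher in 5 pairs and lower in 5, with a mean difference of 0.02 ± 0.23 (SE). In Control it ran from 0.36 in number 9 to 2.01 in number 1, and in ICH from -0.45 in number 8 to 2.06 in number 3. The 3p share of the pooled reads was 67.5% before and 67.1% after.

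**Figure D4:**
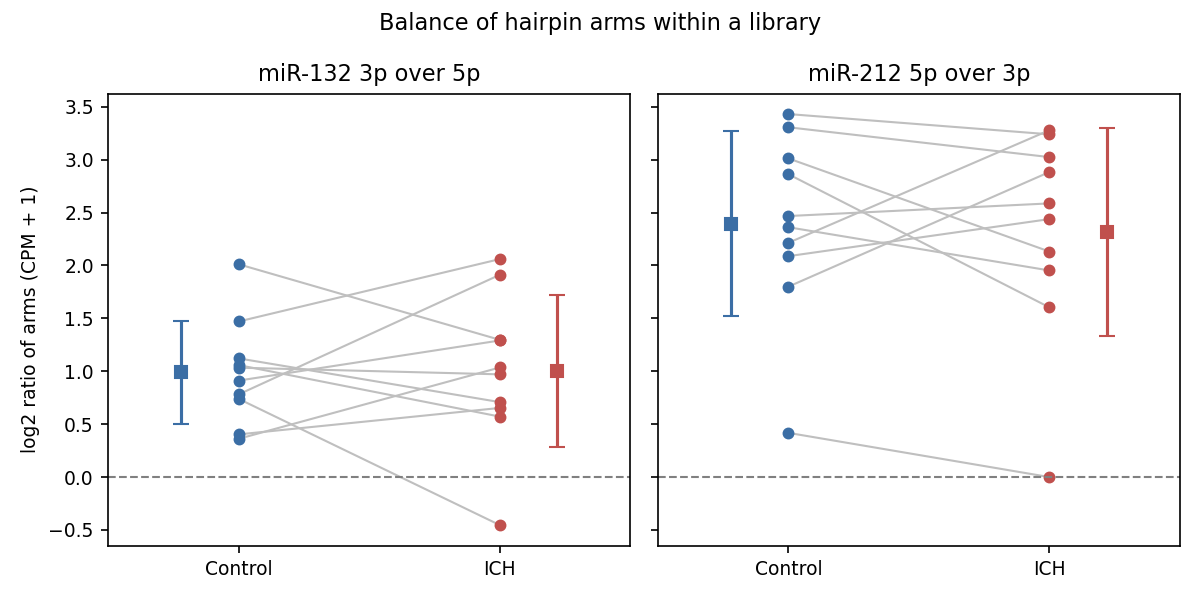
Log2 ratio of the major to the minor arm within each library for miR-132 (3p over 5p) and miR-212 (5p over 3p), from CPM + 1. Circles are libraries, grey lines join replicate numbers, squares with bars are the mean ± SD of 10 libraries and the dashed line marks equal arms. The miR-132 means, 0.99 and 1.005, differ by less than either SD, and of the miR-132 points ICH 8 is the one below the line.

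No correlation between the arms was detected across libraries. Across the 10 Control libraries the levels of 3p and 5p had Pearson's r = -0.07 and Spearman's rho = -0.08 (permutation p = 0.84 for each). Across the 10 ICH libraries r was 0.02 and rho 0.02 (permutation p = 0.96 and 0.97). Without the 2 libraries farthest from the median of 3p, r was -0.04 in Control and 0.05 in ICH. Those values had TMM scaling. With library totals r was -0.07 in Control and 0.19 in ICH, and 0.38 and 0.29 without the 2 farthest libraries. In Control the 5p arm's CPM varied less between libraries than counting error alone gives (values below). An r near 0 there cannot show whether the arms vary together, and few reads limit r in ICH as well. The 3p arm and hsa-miR-212-5p had r = 0.38 in Control and 0.51 in ICH, with rho of 0.35 and 0.16 (permutation p = 0.28 and 0.13 for r, 0.33 and 0.66 for rho). Without the 2 farthest libraries r was 0.07 and -0.04, so under TMM the relation rested on those libraries. With library totals r went from 0.28 to 0.26 in Control and from 0.58 to 0.13 in ICH, so in Control it did not rest on them there. Under TMM all 4 relations had adjusted p values of 0.54 to 0.96 for r and 0.97 for rho.

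The spread between libraries was set beside the error of counting so few reads. In Control the coefficient of variation of the 5p arm's CPM was 15.7%, below the 23.2% that counting alone gives at the mean read number. For the 3p arm it was 31.2% against 16.1% from counting. In ICH the values were 37.1% against 20.4% for 3p and 39.6% against 29.1% for 5p. The SD of log2 CPM of the 3p arm across Control libraries was 0.39. The median was 0.37 over all tested miRNAs and 0.45 over the 35 within 0.5 log2 units of its level.

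The miRNAs most like miR-132-3p across the 20 libraries, after each group's mean was subtracted, were miR-505-3p (Pearson's r = 0.52), miR-30c-5p (0.50), miR-15b-3p (0.50), miR-29b-2-5p (0.49) and miR-181a-5p (0.46). Candidates were the 230 tested human-reference miRNAs whose mean CPM was 10 or more, over which the median r was -0.05. Its own 5p arm had r = -0.01. Within the groups, miR-29b-2-5p had r = 0.09 in Control and 0.77 in ICH, and miR-181a-5p 0.22 and 0.60. For miR-505-3p, miR-30c-5p and miR-15b-3p r was 0.47 to 0.58 in each group. In the pig table, miR-30c-5p and miR-505 (0.53 each), miR-19b and miR-181a (0.49 each) and miR-15b (0.48) came first of 175. There miR-19b had r = 0.17 in Control and 0.74 in ICH, miR-181a 0.30 and 0.59, and the others 0.41 to 0.59 in each group. These are descriptions over libraries that share their reads between the tables. Of the human-reference 5, miR-181a-5p, an miRNA of developing and mature lymphocytes, fell after ICH (log2 fold change -0.32 ± 0.083, adjusted p = 0.00856, edgeR with the block), and the other 4 did not pass. Of the pig-reference 5, miR-19b (-0.36 ± 0.12, adjusted p = 0.041, same fit) and miR-181a (-0.39 ± 0.080, adjusted p = 0.00245) fell. The others there did not pass. Of all tested, 6.12% of human-reference and 10.1% of pig-reference miRNAs were called lower.

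miRNAs known to be induced when leukocytes are stimulated were counted as a list, without miR-132 and miR-212. Among human-reference miRNAs 3 of 14 tested members rose, 2 fell and 9 did not pass, where 13.1% of all 245 tested were called higher and 6.12% lower. Over the list the log2 fold changes had a median of -0.04, against 0.03 over all 245 tested. miR-21-5p, induced in activated immune cells, rose from a mean of 127993 to 174650 CPM, a log2 fold change of 0.58 ± 0.093 (SE; adjusted p = 0.000153, edgeR with the block). miR-147b, a Toll-like receptor product of macrophages, rose by 0.60 ± 0.16 (log2 scale; adjusted p = 0.011, edgeR with the block), and miR-9-5p, which NF-kB signalling induces in monocytes, rose by 0.54 ± 0.11 (log2 scale; adjusted p = 0.00139). miR-147b did not pass under library totals (adjusted p = 0.0577) or without replicate 10 (0.0556), and over its alternatives the adjusted p ran from 0.00498 to 0.294. Without the block edgeR called 1 rise in the list, of miR-21-5p, and 1 fall, of miR-125a-5p. DESeq2 without the block called the same rise and 2 falls, of miR-125a-5p and miR-99b-5p. Of all 245 tested, edgeR without the block called 7 higher and 2 lower, and DESeq2 7 and 6.

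The members that fell with the block were miR-125a-5p and miR-99b-5p, which come from a shared cluster. miR-125a-5p went from 348.6 ± 93.3 to 220.6 ± 41.9 CPM (SD, n = 10 each), a log2 fold change of -0.53 ± 0.12 (SE; adjusted p = 0.00244, edgeR with the block). For miR-99b-5p it was -0.57 ± 0.13 (adjusted p = 0.00364). Without the block its adjusted p was 0.0511 in edgeR, 0.0365 in edgeR without the low-count filter, and 0.0136 in DESeq2. The best known products of Toll-like receptor signalling did not pass: miR-155-5p had 0.20 ± 0.091 (adjusted p = 0.14) and miR-146a-5p had -0.15 ± 0.10 (adjusted p = 0.327). Among pig-reference miRNAs 2 of 11 tested members rose and 2 fell, against 11.7% and 10.1% of all 179 tested.

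**Figure D5:**
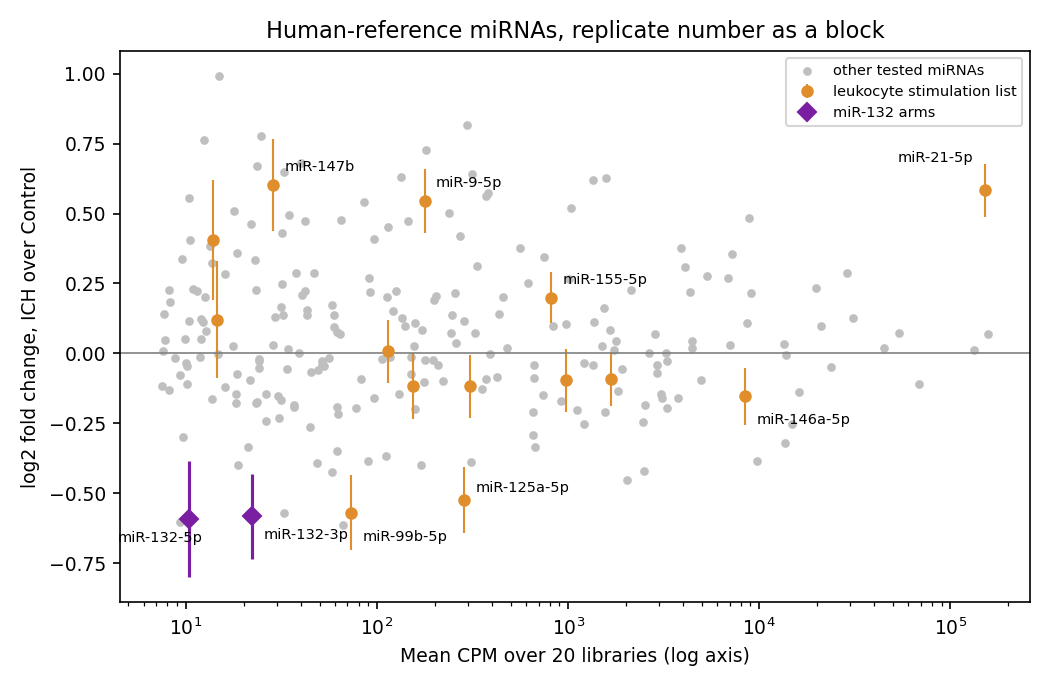
Log2 fold change (ICH over Control, edgeR with the replicate number as a block) of 245 human-reference miRNAs against their mean CPM on a log axis. Purple diamonds are the miR-132 arms and orange circles the leukocyte stimulation list, both with bars of ± 1 SE, and grey points are the other miRNAs. The miR-132 arms lie at the scarce end, at 22.2 and 10.4 CPM, with log2 fold changes of -0.58 and -0.59.

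The list of miRNAs linked to CREB or neuronal activity had 5 tested members besides miR-132 and miR-212. miR-9-5p was the member that rose with the block (adjusted p = 0.0801 without it), and 4 did not pass, among them miR-128-3p (0.21 ± 0.11, adjusted p = 0.206). Of all 245 tested with the block, 13.1% were called higher and 6.12% lower. The list's median log2 value was 0.12, against 0.03 over all tested. The same 5 were the tested rows of the list of neuron markers, and they were not all scarce. miR-128-3p was at a mean of 8653 CPM in Control and 9449 CPM in ICH, and miR-9-5p at 148.5 and 205.8 CPM. The lowest of the 5 was at 7.92 and 7.61 CPM. miR-124 and miR-137, which define neurons, are not among the rows used here. The neuron markers below the low-count filter collected 1 to 119 reads each over 20 libraries. Of these, miR-129-5p had the most, with 2.66 ± 3.34 CPM in Control and 6.45 ± 5.75 CPM in ICH (SD, n = 10 each). It was called higher by edgeR without that filter when the block was kept, but not without the block. miR-138-5p had 11 reads and miR-153-3p 1.

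Markers of blood cell types were counted the same way, in the human-reference fit where 6.12% of all tested miRNAs were called lower and 13.1% higher. The marker lists were chosen with earlier results of these data known, so their counts are descriptions. Of the lymphocyte markers 5 of 13 tested fell and 0 rose with the block (0 higher also at an unadjusted p under 0.05, edgeR). They were miR-150-5p, miR-181a-5p, miR-29a-3p, miR-29b-3p and miR-31-5p. Their list had a median of -0.32 on the log2 fold scale. Without the block edgeR called 7 higher and 2 lower of all 245 tested, and DESeq2 7 and 6. Of the lymphocyte markers edgeR then called 0 of 13 (5 lower at an unadjusted p under 0.05) and DESeq2 2 of 13. Their summed level was 22725 to 43602 CPM in Control (median 36004) and 18309 to 34869 CPM in ICH (median 25775), lower in 9 of 10 pairs. Of the myeloid markers 3 of 9 rose, namely both arms of miR-223 and the 5p arm of miR-27a, with a summed level of 17132 to 27989 CPM in Control and 19548 to 28332 CPM in ICH, higher in 5 pairs and lower in 5. Among pig-reference myeloid markers edgeR called 0 of 6 with the block, and 0 had an unadjusted p under 0.05. Of all 179 pig-reference miRNAs tested, 11.7% were called higher and 10.1% lower. miR-223 had no pig-reference row. The pig-reference miR-27a row was at 4718 CPM in Control, near the human-reference 3p arm (4569 CPM) and not the 5p arm (139.6 CPM). The human-reference rises could therefore not be tested there. Of the erythroid markers 2 of 4, miR-486-5p and miR-144-3p, rose with the block and 0 without it (1 at an unadjusted p under 0.05), and their summed level was 106.1 to 848.6 CPM in Control and 431.7 to 1130 CPM in ICH. Of the 7 tested platelet markers miR-126-3p rose and miR-151a-5p fell with the block, and the other 5 did not pass. Without the block the fall did not pass in edgeR but passed in DESeq2. The part of these markers in the lower level of miR-132 was not tested.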

How the data were processed

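The authors deposited raw counts for every library and miRNA, once for a pig and once for a human miRNA reference, with a filtered version of each and RPM values. The deposited RPM equalled the filtered counts scaled to 1000000 per library, within 0.005. The submitters' processing notes name bcl2fastq, FastQC, Bowtie and the builds Sscrofa11.1, hg38 and GRCh38. How reads were counted and filtered is not given in the sources used here. That filter kept 99.6% to 99.8% of all reads, but 87.4% of those of miR-132-3p, 74.9% of miR-132-5p and 63.8% of miR-212-5p.

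Groups and replicate numbers came from the sample titles. Unfiltered counts were fitted in R 4.3.3 with edgeR 4.0.16 (filterByExpr with a minimum count of 10, TMM, robust quasi-likelihood fit) with the replicate number as a block, with Benjamini-Hochberg adjustment over all miRNAs tested and a threshold of 0.05. The SE of a log2 fold change was its size divided by the square root of F. The alternatives used DESeq2 1.42.0 and limma 3.58.1. The design text describes a draw of blood before ICH and another 6 h after it. The labels do not say outright that equal numbers mark the same animal. Same-numbered libraries deviated together from their group means in 10 of 10 pairs, above the minimum r of 0.1. Their r was 0.146 to 0.672 in the human and 0.129 to 0.768 in the pig table. For unlike numbers the median r was -0.07 and -0.06. The fits pair by number on these grounds. Libraries of a pair carry consecutive numbers in their names, so a shared animal and shared handling cannot be told apart. P values of fits with the block cover the spread of the change between these replicate numbers. Those of fits without it cover the spread between these libraries within a group. On simulated counts with 40 miRNAs changed 2-fold among the tested human-reference miRNAs, the fit recovered 100% of them, with 0.99% of the others called. The changed miRNAs were drawn from all tested levels, with the same added spread for every miRNA. Recovery at the level and the smaller fold of miR-132 was therefore not tested. CPM are per library total unless TMM is named. Ratios used CPM + 1, and permutation tests 100000 resamples of log2(CPM + 1) with TMM scaling. The labels name no molecular identifiers, so intervals cover counting error only.

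The members and lists were chosen with earlier results of these data known. By the rule for naming, all miR-132 and miR-212 rows were named, every miRNA gene within 1000000 bases, the called members of each list, and the 5 tested miRNAs most correlated with miR-132 in each table. The part of the rule that names miRNAs with a shared seed was not applied, since sequences were not used here. miR-155-5p, miR-146a-5p, miR-128-3p, miR-129-5p, miR-138-5p and miR-153-3p were named after their values were seen, and the sign-flip test of the arms, the count of even hairpins and the miR-212 relations were added after seeing the data.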

Additional observations from a re-analysis of the deposited data

Results flagged for a closer look

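The 5p to 3p ratio of miR-212 in ICH 8 was set apart from the other ICH libraries. Its log2 ratio was 0, from 1 read of each arm, against 1.60 to 3.28 in the other 9. The gap took 0.489 of the group's range, above Dixon's 95% critical value for 10 libraries. Of 22 groups of 10 libraries checked (the levels, ratios and read totals), this was 1, and chance flags about 1 in 20. The same library had the lowest miR-132-3p of all 20, at 7 reads and 6.32 CPM.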

How the results depend on the processing

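Under the alternatives run, the log2 fold changes of the miR-132 rows kept their direction. They ran from -0.71 to -0.57 for hsa-miR-132-3p, -0.74 to -0.57 for hsa-miR-132-5p and -0.69 to -0.54 for ssc-miR-132. With no replicate block they were -0.59, -0.57 and -0.65. Leaving out 1 replicate number at a time gave -0.67 to -0.56, -0.73 to -0.57 and -0.70 to -0.56. With the authors' filtered counts hsa-miR-132-5p was too low to be tested.

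The counts over all miRNAs depended on the settings. Among pig-reference miRNAs 21 were higher and 18 lower with the block. With no replicate block edgeR called 0 and 0 (35 at an unadjusted p under 0.05, smallest adjusted p 0.0505) and DESeq2 5 and 5. Upper-quartile scaling gave 35 and 9, and no block with no filter on low counts 0 and 0 (44 at an unadjusted p under 0.05). Among human-reference miRNAs 32 were higher and 15 lower. With no replicate block edgeR called 7 and 2, and DESeq2 7 and 6. Library totals gave 15 and 24, upper-quartile scaling 18 and 29, limma on the deposited RPM 18 higher, and no block with no filter 3 and 3. Leaving out 1 replicate number gave 14 to 35 higher and 13 to 24 lower in the pig table, and 19 to 33 and 12 to 28 in the human table. Without replicate 4 there were 35 and 24 pig-reference and 33 and 28 human-reference calls; hsa-miR-132-3p was then at -0.62 and hsa-miR-132-5p at -0.64. Without replicate 6 or 9 the human table had 19 or 20 higher.

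The relation of miR-132-3p with miR-212-5p across ICH libraries turned from r = 0.51 to -0.0367 without the 2 libraries farthest from the median under TMM, and from 0.58 to 0.13 under library totals. Under other pseudocounts and the filtered counts, the mean log2 arm ratio of miR-132 ran from 0.82 to 1.20 in Control and 0.75 to 1.26 in ICH. The highest values came with the filtered counts. The mean change within pairs ran from -0.08 to 0.07. Depth limits every row here: a library held 7 to 63 reads of miR-132-3p, 3 to 35 of miR-132-5p and 1 to 18 of miR-212-5p.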
